A study of Mus musculus with 8 samples.

Results

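Glutathione S-transferases were followed through 10 genes of the mouse array, Gsta2, Gsta3, Gsta4, Gstm1, Gstm2, Gstm5, Gstp1, Gstt1, Gsto1 and Gstk1, in the left ventricle of mice on a normal or a low salt diet. Every non-control probe whose gene name in the scanner files was one of these 10 was taken, which gave 15 of the 39429 probes (10 of 30199 gene names), and all 15 were well above background in 8 of 8 samples. The genes were chosen by their family and with the measured low salt minus normal salt differences of these same samples known, so their diet differences are given below as descriptions with no test. The mice were male C57Bl/6j, an inbred laboratory strain. From 8 weeks before death, at an age of 16 weeks, they ate food with 0.4% sodium (normal salt, 4 mice) or 0.05% sodium (low salt, 4 mice). RNA came from the left ventricle of each mouse (its apex, free wall and septum combined), a tissue that mixes heart muscle cells with vessel, connective tissue and immune cells, so that fewer cells of a type and less RNA per cell cannot be told apart. Each of the 4 arrays carried 2 mice of the same diet, 1 labelled with Cy3 and 1 with Cy5. Mice 1 and 2 of a diet shared an array, as did mice 3 and 4, and odd numbers were labelled with Cy3. Diet therefore differed only between arrays, and a difference between arrays cannot be told apart from a difference between the mice on them.

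Glutathione S-transferases join the tripeptide glutathione to reactive, electron-poor compounds, which makes these more soluble and easier to export. The soluble enzymes form classes named by Greek letters, and in the heart they are known for clearing the aldehydes that arise when membrane lipids are oxidised. Several of their genes are induced by foreign compounds and by oxidative stress, through the transcription factor Nfe2l2 and the aryl hydrocarbon receptor.

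The sequences that matter most are those of the probes that moved furthest and of the Gstp1 probes, because related genes can bind each other's probes. All member probes have 60 bases. Probes were compared with other probes of the family and not with transcripts. The comparison therefore cannot show whether a member probe binds the RNA of a related gene. Over 495 pairs of a member probe with another probe of the family, compared over at least 30 aligned bases, 1 pair was at least 80% identical. It joined a Gstp1 probe with a probe of its neighbour Gstp2, which shared 30 of 35 aligned bases. In this pair the capitals mark the 5 aligned bases that differ, and the second Gstp1 probe, which the array design lists for both Gstp1 and Gstp2, is given after them.
Gstp1 A_51_P374464: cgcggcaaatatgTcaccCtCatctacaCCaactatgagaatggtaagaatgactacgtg
Gstp2 A_55_P2008704: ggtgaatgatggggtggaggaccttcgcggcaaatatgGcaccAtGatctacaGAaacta
Gstp1 A_55_P2031668: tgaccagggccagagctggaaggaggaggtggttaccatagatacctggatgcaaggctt
The Gsta3 and Gstt1 probes lie near the ends of their transcripts, and the first 30 bases of each are shown.
Gsta3 A_51_P503625: tgacgaggaacggccggatgctctctagtt
Gsta3 A_55_P1961423: attcaggcaactataagtacatagccccca
Gstt1 A_55_P2024841: actataatcactactttccccttgagtctg

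Levels are log2 intensities after background correction and normalization, and a difference is low salt minus normal salt on that log2 scale with the standard error (SE) of the limma fit. Of the 15 probes, 7 had a negative and 8 a positive difference. Their median difference was 0.02, beside 0.01 over all 23143 probes tested, of which 47.8% were lower on low salt. At 3 member probes every low salt mouse read lower than every normal salt mouse, both of Gsta3 and that of Gstt1. The reverse held at 3 others, those of Gstp1 (A_51_P374464), Gstm1 (A_55_P2062190) and Gsto1. Over all probes such separation was seen at 4.8% in the lower and 7.68% in the higher direction. Since the members were chosen with this contrast known, nothing is read from these counts.

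**Figure D1:**
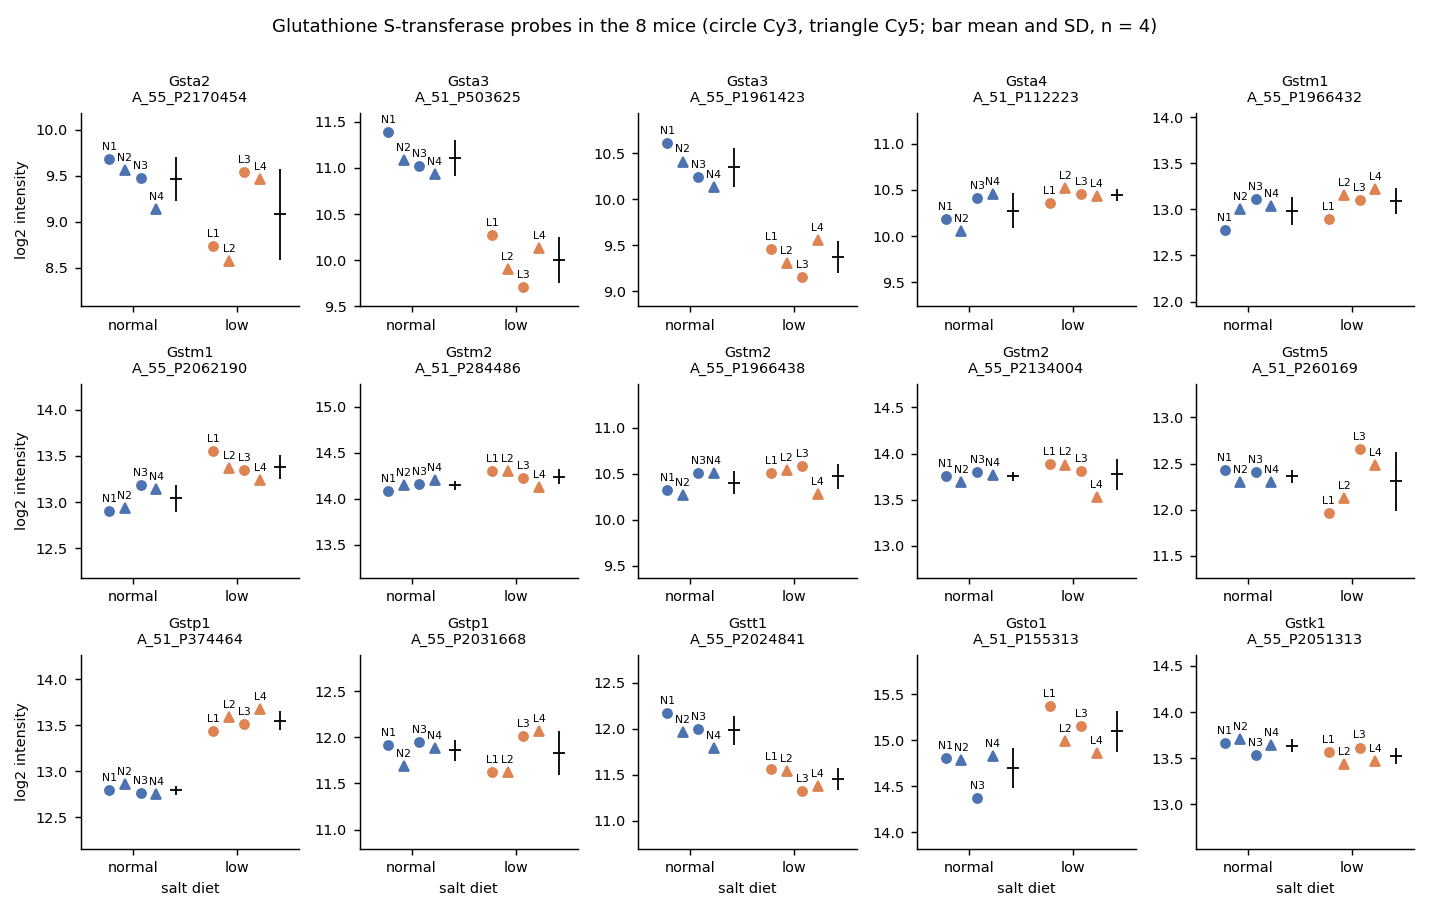
Log2 intensity of the 15 member probes in each mouse, by diet; circles are Cy3 samples, triangles Cy5 samples, and the bar is the mean with its SD over 4 mice. Each vertical axis spans the same log2 range around its own probe, and both Gsta3 probes, Gstt1, Gstp1 A_51_P374464, Gstm1 A_55_P2062190 and Gsto1 show 2 groups that do not overlap.

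Among the alpha class enzymes, Gsta3 stood lower on low salt at both of its probes. Gsta3 is known in mice for inactivating an epoxide of the mould toxin aflatoxin. Its probe A_51_P503625 (mm9 chr1:21255189-21255248, plus strand) read 11.39, 11.08, 11.02 and 10.94 in normal salt mice 1 to 4. It read 10.27, 9.90, 9.71 and 10.13 in low salt mice 1 to 4. The highest low salt mouse stayed below the lowest normal salt mouse. The means were 11.107 ± 0.20 and 10.003 ± 0.25 (SD, n = 4 each), a difference of -1.10 with an SE of 0.23, or 2.15-fold lower on low salt.

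The second Gsta3 probe, A_55_P1961423 (mm9 chr1:21255043-21255102, plus strand), gave the same picture from other bases of the transcript. Normal salt mice read 10.61, 10.41, 10.24 and 10.13. Low salt mice read 9.46, 9.31, 9.16 and 9.56. Again no low salt mouse reached the lowest normal salt mouse, and the difference was -0.98 with an SE of 0.19 (1.97-fold lower). After each profile was centred on its own mean, the root mean square difference between both Gsta3 probes was 0.11 over the 8 samples, where the median over 3810 genes with at least 2 probes was 0.22. Spots around the Gsta3 probes showed almost no diet difference of their own (0.02 and -0.01), and with the local trend subtracted the Gsta3 differences were -1.12 and -0.97. Over 26 alternative settings for the first probe and 25 for the second, the difference ran from -1.23 to -0.95 and from -1.14 to -0.81.

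Of the 9 member genes with a RefSeq promoter in the table used here (build GRCm38.p6), Gsta3 and Gstm5 held the letters TGACNNNGC, a core of the antioxidant response element to which Nfe2l2 binds, on either strand between 250 bases before and 50 after the start. The same letters stood in 12.4% of 32851 promoters of the same length. Other forms of the antioxidant response element were not sought, so a promoter without these letters may still hold one. The core of the element bound by the aryl hydrocarbon receptor, GCGTG, stood in 4 of the 9, those of Gsta2, Gstm1, Gstm5 and Gstp1, and in 32.4% of all promoters. The 250 bases before the Gsta3 start, chr1:21240335-21240584 on the plus strand, are shown because Gsta3 had the furthest difference of the members, and the capitals mark the TGACNNNGC match, which is a match of letters and not a measured site.
Gsta3 promoter: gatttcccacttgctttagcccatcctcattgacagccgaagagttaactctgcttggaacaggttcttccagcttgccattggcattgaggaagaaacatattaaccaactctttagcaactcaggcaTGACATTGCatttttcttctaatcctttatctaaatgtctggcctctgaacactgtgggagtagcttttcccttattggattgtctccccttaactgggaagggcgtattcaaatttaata

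Gsta2, a close relative of Gsta3 in the same class, was low in only 2 of the 4 low salt mice. Its probe (A_55_P2170454, mm9 chr9:78178856-78178915, minus strand) read 9.69, 9.56, 9.48 and 9.13 on normal salt. On low salt it read 8.74 and 8.57 in mice 1 and 2 and 9.54 and 9.47 in mice 3 and 4. The mice of 1 low salt array were thus below every normal salt mouse, and those of the other lay among them. The difference was -0.38 with an SE of 0.25. With mice 1 and 2 of the low salt group left out it was 0.04, and with mice 3 and 4 left out it was -0.81. The local difference around the Gsta2 spot was -0.16, and with the local trend subtracted the Gsta2 difference was -0.22.

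Gsta4 encodes the alpha class enzyme known for its action on hydroxynonenal, an aldehyde from oxidised lipids. Its probe (A_51_P112223) is printed at 10 places of each array, and the mean over these spots was 10.28 ± 0.19 on normal and 10.44 ± 0.07 on low salt (SD, n = 4 each), a difference of 0.16 with an SE of 0.13. The design coordinates (mm9 chr9:78046172-78047344, plus strand) span 1173 bases for a probe of 60, so the probe crosses at least 1 intron. The mice overlapped, with normal salt mice 1 and 2 lowest at 10.19 and 10.05. The difference was 0.01 with their array left out and 0.32 with that of mice 3 and 4 left out.

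The 10 Gsta4 spots carry the same sequence and met the same RNA, so the spread between them is technical. Their differences ran from -0.11 to 0.70 with a median of 0.07, and 2 of the 10 were below 0. The difference of 0.70 came from the spot in row 140, column 14, near the low-numbered columns of the array. At that spot the 4 normal salt readings averaged 9.61 and the low salt readings 10.31, whereas at the other 9 spots the normal salt means lay between 9.77 and 10.61. Within single mice the SD over the 10 spots was 0.06 to 0.44. Gstm7, a mu class gene outside the members whose probe is also printed 10 times, had spot differences of 0.06 to 0.39.

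**Figure D2:**
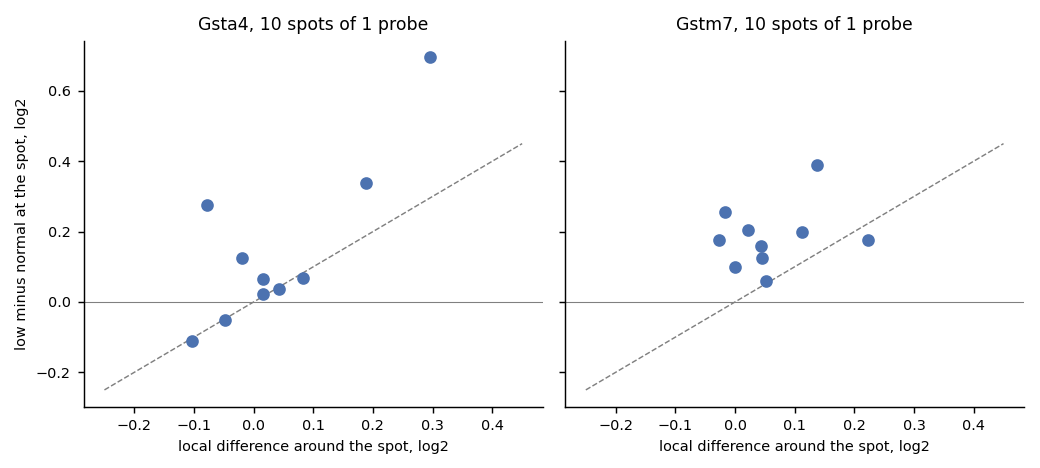
Diet difference at each of the 10 spots of the Gsta4 and the Gstm7 probe against the local difference. The local difference is the diet difference of the medians, taken in each sample, of the spots around it. The dashed line marks equality. The Gsta4 spot at 0.70 also has the highest local difference of the 10, at 0.29, while the Gsta4 spot at 0.28 has one of -0.08. For Gstm7 the spot with the highest local difference, 0.22, is at 0.18, and the spot at 0.39 has a local difference of 0.14.

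Gstp1, the pi class enzyme, gave unlike readings at its 2 probes. It is abundant in many tissues and is known, besides its enzyme activity, for binding the stress kinase Jnk. Probe A_51_P374464 (mm9 chr19:4035908-4036723, minus strand, 816 bases for a probe of 60, so across at least 1 intron) read 12.80, 12.86, 12.76 and 12.75 on normal salt. It read 13.43, 13.58, 13.51 and 13.67 on low salt. All low salt mice were above all normal salt mice, with a difference of 0.76 and an SE of 0.10, or 1.69-fold higher on low salt.

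Probe A_55_P2031668 (mm9 chr19:4037306-4037365, minus strand) showed no such separation. Normal salt mice read 11.91, 11.69, 11.95 and 11.89, and low salt mice 11.62, 11.63, 12.01 and 12.07, a difference of -0.03 with an SE of 0.15. Low salt mice 1 and 2 were below every normal salt mouse and mice 3 and 4 above every one. Both probes therefore differed by 0.79 in their diet difference, where the median over 3810 genes with at least 2 probes was 0.17 and the 95th percentile 0.72. Gstp2 was read by 2 probes of its own. The one that shares 30 of 35 aligned bases with the higher Gstp1 probe (A_55_P2008704) had a difference of -0.09 with an SE of 0.09. The other (A_55_P1957038) had -0.01 with an SE of 0.12, and neither passed the limma test (adjusted p = 0.739 and 0.989; over the alternatives 0.398 to 0.9999 and 0.792 to 0.9999).

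The higher Gstp1 probe sits in row 228, column 12, in a part of the array where neighbouring spots of many genes were also higher on low salt. The local difference around it, from the median in each sample over kept spots in a window of 29 rows by 9 columns, was 0.46. With the local trend of these spots subtracted from each sample, the difference of this Gstp1 probe was 0.29. In the scanner's own processed signal it was 0.53. Of the 180 probes called higher over the whole array at an adjusted p below 0.05 in the limma fit, 174 (96.7%) lay where the local difference exceeded 0.2 in size, beside 10.3% of all probes tested. The second Gstp1 probe, in row 114, column 20, had a local difference of -0.20, and its difference became 0.17 with the local trend subtracted. With that trend subtracted both Gstp1 probes thus lay closer together, at 0.29 and 0.17, than at 0.76 and -0.03 without the subtraction.

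**Figure D3:**
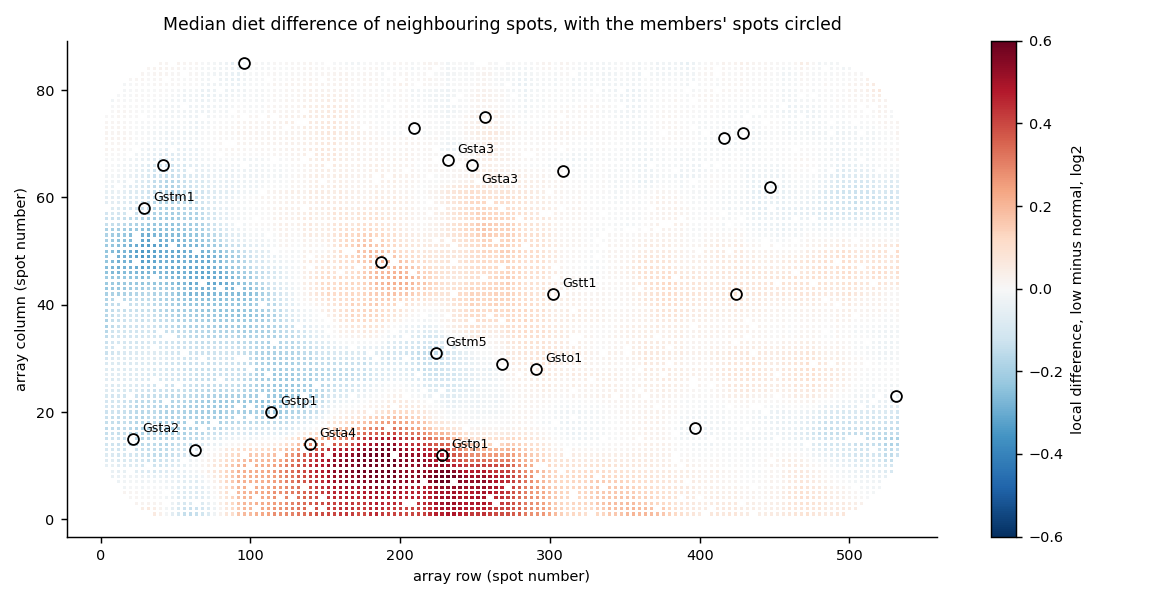
Local difference (low minus normal salt, log2, of the medians over neighbouring spots) by array row and column. The 24 spots of the member probes are circled and those discussed are named. The part with the highest local differences lies at low column numbers and holds the Gstp1 spot in row 228 and the Gsta4 spot in row 140.

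Gstt1, the theta class enzyme known for its action on small halogenated compounds, was lower on low salt. Its probe (A_55_P2024841, mm9 chr10:75246560-75246619, minus strand) read 12.18, 11.97, 12.00 and 11.79 on normal salt. It read 11.57, 11.54, 11.33 and 11.38 on low salt. The groups did not overlap, and the difference was -0.53 with an SE of 0.13 (1.44-fold lower). The local difference around its spot was 0.04, and over 26 alternatives the difference stayed between -0.64 and -0.42.

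The differences of the mu class members lay between -0.05 and 0.34. These enzymes are known for their action on epoxides of aromatic compounds, and the human form of Gstm2 is also known to modulate the ryanodine receptor, the calcium channel of the muscle cell store. For Gstm2, 3 probes (A_51_P284486, A_55_P2134004 and A_55_P1966438) gave differences of 0.09, 0.02 and 0.07 with SEs of 0.10, 0.12 and 0.13. Probe A_51_P284486 read 14.09, 14.15, 14.16 and 14.20 on normal and 14.31, 14.30, 14.23 and 14.13 on low salt, so that the groups overlapped. Their centred profiles differed by root mean squares of 0.08 in each of the 3 pairs.

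For Gstm1 the probes differed. Probe A_55_P1966432 (mm9 chr3:107815595-107815654, minus strand) read 12.77, 13.01, 13.12 and 13.04 on normal and 12.89, 13.15, 13.11 and 13.22 on low salt, a difference of 0.11 with an SE of 0.13. Probe A_55_P2062190 read 12.90, 12.93, 13.19 and 13.14 on normal and 13.56, 13.37, 13.34 and 13.24 on low salt. The groups did not overlap there, and the difference was 0.34 with an SE of 0.12. The array design places this probe on mm9 chr5:117082490-117082549, minus strand, and not on chromosome 3, where the other Gstm1 probe lies. Its local difference was -0.14, and with the local trend subtracted its difference was 0.48.

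Gstm5, a mu class form best known from brain and testis, read 12.43, 12.30, 12.41 and 12.30 on normal salt (A_51_P260169, mm9 chr3:107701101-107701160, plus strand). On low salt it read 11.97, 12.12, 12.66 and 12.49. The low salt mice fell on both sides of the normal salt mice by array, and the difference was -0.05 with an SE of 0.17. The local difference around the Gstm5 spot was -0.14, and with the local trend subtracted the Gstm5 difference was 0.09.

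Gsto1, the omega class enzyme known for reducing oxidised vitamin C and mixed disulphides of glutathione, read 14.81, 14.78, 14.37 and 14.83 on normal salt (A_51_P155313, mm9 chr19:47939128-47939187, plus strand). It read 15.37, 14.99, 15.16 and 14.86 on low salt. All low salt mice were above all normal salt mice, though low salt mouse 4 exceeded normal salt mouse 4 by little. The difference was 0.40 with an SE of 0.24. It was 0.23 without normal salt mouse 3, the lowest, and it was 0.67 in the Cy3 samples alone and 0.12 in the Cy5 samples alone. Gstk1, the kappa class enzyme of mitochondria and peroxisomes, read 13.66, 13.70, 13.53 and 13.64 on normal and 13.57, 13.43, 13.61 and 13.47 on low salt (A_55_P2051313, mm9 chr6:42200381-42200440, plus strand). These groups overlapped, with a difference of -0.11 and an SE of 0.11.

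**Figure D4:**
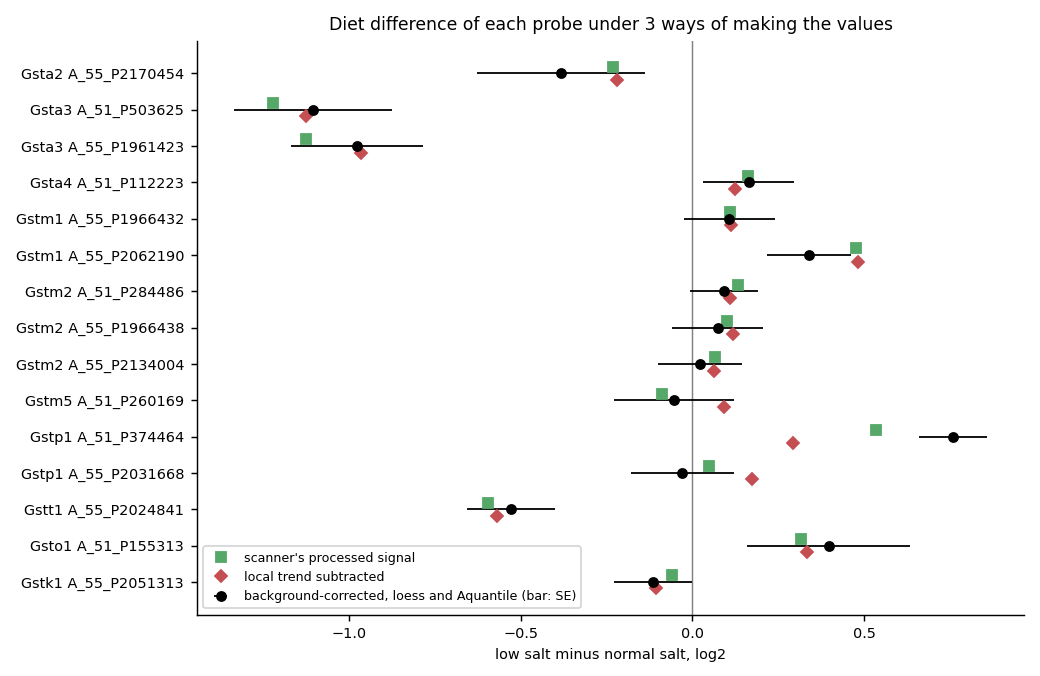
Low salt minus normal salt (log2) for each member probe as computed here (black, bar: SE) and from the scanner's processed signal (green) and after subtraction of the local trend (red). Gsta3 and Gstt1 stay near their values in all 3, while Gstp1 A_51_P374464 goes from 0.76 to 0.53 and 0.29.

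The choice of the genes did not use differences between the arrays of 1 diet, and these were tested with limma over all probes. On normal salt, 0 of the 15 member probes differed between the array of mice 3 and 4 and that of mice 1 and 2, beside 9.53% of all probes. On low salt, 3 of 15 did, beside 13.8% of all probes. Gsta2 was higher on the array of low salt mice 3 and 4 by 0.85 (SE 0.09, adjusted p = 0.00267), Gstm5 by 0.53 (SE 0.10, adjusted p = 0.0176) and Gstp1 A_55_P2031668 by 0.42 (SE 0.09, adjusted p = 0.0286). For Gsta2 the array difference was 0.55 to 1.25 over 16 alternatives, lowest with the local trend subtracted. Its adjusted p was 0.000251 to 0.0296 over them. The Gstm5 call held in 11 of 16 alternatives, and that of this Gstp1 probe in 7 of 15. For Gstm5 and for this Gstp1 probe the call was lost with the local trend subtracted, at 0.21 (adjusted p = 0.302) and 0.05 (adjusted p = 0.797), over ranges of 0.000823 to 0.302 and 0.000951 to 0.986. In the scanner's processed signal the Gstm5 value was 0.39 (adjusted p = 0.125) and the Gstp1 value -0.0046 (adjusted p = 0.986). The local trend around these spots was also lower on the array of low salt mice 1 and 2. For Gsta2 it was -0.25, -0.21, 0.08 and 0.06 in low salt mice 1 to 4. For Gstm5 it was -0.22, -0.25, 0.08 and 0.09, and for this Gstp1 probe -0.28, -0.28, 0.10 and 0.07. Whether the mice or the arrays differed cannot be told apart.

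For listed genes outside the members the diet difference was tested in the limma fit over all probes, which called 0.812% of them (0.778% higher and 0.0346% lower), and 11.1% had an unadjusted p below 0.05. These lists, too, were drawn up with earlier results of these data known, so that a call in them is no independent evidence. Of 17 other glutathione transferase genes listed, 12 were measured by 22 probes, 14 of which were higher and 8 lower on low salt with a median of 0.14, and 0 passed. At an unadjusted p below 0.05 there were 5 of the 22. The 2 probes with the smallest p were those of Gstm3, a mu class gene, and Gstt2, a theta class gene beside Gstt1. Gstm3 (A_55_P2065231) read 11.58, 11.77, 11.10 and 11.22 on normal and 11.72, 12.10, 11.93 and 12.00 on low salt, a difference of 0.52 with an SE of 0.17 (limma, adjusted p = 0.302; 0.0674 to 0.9999 over the alternatives). Gstt2 read 9.57, 9.17, 9.21 and 8.74 on normal and 8.10, 8.22, 8.73 and 8.75 on low salt, a difference of -0.73 with an SE of 0.25 (limma, adjusted p = 0.345; 0.0646 to 0.9999). Both groups overlapped.

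**Figure D5:**
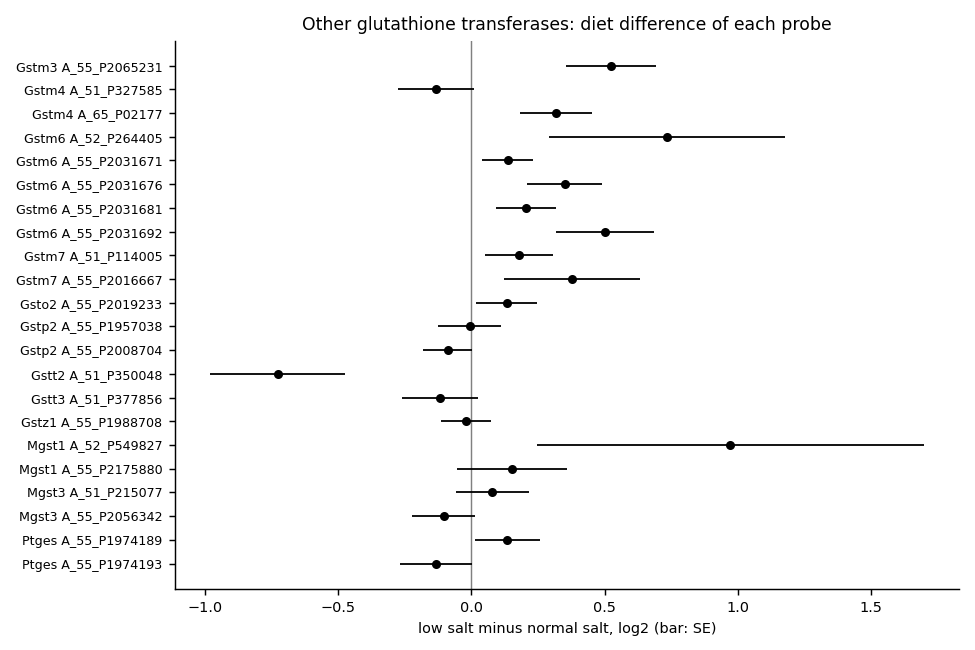
Low salt minus normal salt (log2) with its SE for the 22 probes of 12 other glutathione transferase genes that were measured. Gstm3 and Gstt2 are the 2 with the smallest p, and the Mgst1 probe at 0.97 has the widest SE, 0.73.

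Glutathione synthesis and recycling genes, 31 of 33 measured by 37 probes, had a median difference of 0.01 and 0 calls in the limma fit (1 of 37 at an unadjusted p below 0.05). The smallest p belonged to Chac1, which breaks glutathione down, at 0.69 with an SE of 0.19 (9.21, 9.09, 9.17 and 8.68 on normal, 9.999, 9.78, 9.49 and 9.62 on low salt; limma, adjusted p = 0.216; 0.0346 to 0.975 over the alternatives). The groups did not overlap, and Chac1 passed with the mouse number as a replicate block (adjusted p = 0.0346). Glrx2, a mitochondrial glutaredoxin, followed at 0.30 with an SE of 0.15 at its probe A_55_P2095384 (limma, adjusted p = 0.495; 0.125 to 0.9999 over the alternatives). Its other probes gave -0.09 and -0.55. The local difference around A_55_P2095384 was 0.17, and with the local trend subtracted the difference of that probe was 0.13.

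Of the targets and regulators of the aryl hydrocarbon receptor and Nfe2l2, 25 of 26 genes were measured by 35 probes. Of these probes 14 were higher and 21 lower on low salt, with a median of -0.08. In the limma fit 6 of the 35 had an unadjusted p below 0.05, and 1 probe passed. It belonged to Cyp1a1, the cytochrome P450 most strongly induced through the aryl hydrocarbon receptor, which fell on low salt. Other targets of this receptor in the list did not fall together. Tiparp (0.31 and 0.12), Ahrr (0.28) and Cyp1b1 (0.10) were higher. Cyp1a2 (0.08) was well above background in only 2 of 4 normal and 2 of 4 low salt samples. Its difference was -0.05 with the local trend subtracted and -0.27 in the scanner's processed signal. In that signal the Tiparp value of 0.31 became -0.09, while the other Tiparp probe, Ahrr and Cyp1b1 stayed higher (0.18, 0.39 and 0.14). Nqo1 (-0.14) was lower, the probes of Aldh3a1 gave -0.45 and 0.30, and none of these passed. Cyp1a1 read 8.55, 9.09, 8.52 and 9.08 on normal and 6.82, 6.98, 6.75 and 6.65 on low salt, a difference of -2.01 with an SE of 0.20 (limma, adjusted p = 0.00415; 0.000309 to 0.138 over the alternatives). It was well above background in 4 of 4 normal but only 2 of 4 low salt samples, so that the size of the difference is uncertain, and in the scanner's processed signal it was -3.51. The local difference around its spot was -0.00031. With no normalization between arrays, each array averaged, 1 dye alone or the even parts of the array alone, the difference was -2.27 to -1.75 and did not pass. Osgin1, a growth regulator induced by Nfe2l2 that was singled out here after its values were seen, had a difference of -0.72 with an SE of 0.13 (limma, adjusted p = 0.0553; 0.0134 to 0.386 over the alternatives, 0.0148 with the mouse number as a replicate block). Over the 94 probes of these 3 lists, 1.06% were called.

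The probes most like the 3 member probes with the widest range were sought by the root mean square difference of centred profiles over the 8 samples, among about 18347 probes of other named genes. Nearest to Gsta3 A_51_P503625 were both probes of Nmb, the peptide neuromedin B (0.13 and 0.15), and Cys1, a protein of the primary cilium (0.20), for a member profile with a root mean square of 0.59. Nearest to Gsta3 A_55_P1961423 were Cys1 (0.12), Zfp612 (0.19) and Mthfd1l, a mitochondrial folate enzyme (0.19). Nearest to Gsta2 were Unc13b, Etl4 and Fam160a2 (0.06, 0.07 and 0.07), whose spots had local differences of -0.30, -0.17 and -0.20. Each of these 3 was, like Gsta2, low on the array of low salt mice 1 and 2.

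Median spot signals were 116 to 147 and median backgrounds 15.5 to 33.5 over the 8 samples, and 53.0% to 66.3% of spots were well above background. Markers of ventricular muscle cells were bright in every mouse, with mean levels of 16.91 to 17.37 on normal and 16.69 to 17.15 on low salt over 7 probes. Of 6 atrial markers, 5 were measured by 6 probes, 2 higher and 4 lower on low salt with 0 calls and a median of -0.62, or -0.87 with the local trend subtracted. Sln had a difference of -2.16, Myl7 one of -1.07 and Nppa one of 0.39, Bmp10 was not well above background, and the mean level of the list was 10.44 to 12.29 on normal and 10.20 to 11.53 on low salt. Atrial Myl4 read 12.38, 14.51, 15.47 and 15.27 on normal and 11.01, 13.98, 12.35 and 12.42 on low salt. Endothelial markers had a median of -0.25 (7 of 9 probes lower) and macrophage markers one of 0.29 (10 of 12 higher), fibroblast and smooth muscle markers -0.17 and -0.23, and blood and adipocyte markers -0.22 and 0.21, with 0 calls in each. Over the 9 marker lists the limma fit called 0 of 54 probes, and 9 had an unadjusted p below 0.05. The mesothelial markers Msln, Upk3b and Krt19 were well above background in fewer than 4 of 8 samples and were not tested. The other marker of that list, Wt1, was well above it in 4 of 4 normal and 4 of 4 low salt samples. Its difference was -0.31 with an SE of 0.20, or -0.39 with the local trend subtracted. The part of these cell types in the Gsta3, Gstt1 and Gstp1 values was not tested.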

How the data were processed

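The deposited files hold, per the file headers, the intensity of each spot in both dyes as read by Agilent Feature Extraction 11.5.1.1 (protocol GE2_1105_Oct12; probe coordinates on mm9), before any normalization between arrays. From 8 samples on 4 arrays, each sample in its own dye, the mean signal was corrected with normexp on the median background (offset 50), normalized by loess within arrays (span 0.3) and by Aquantile between them, and the spots of a probe were averaged on the log2 scale. Control spots were left out, and so were spots the scanner marked as outliers. Probes well above background in at least 4 of 8 samples were kept (23236). limma 3.58.1 in R 4.3.3 fitted diet and dye with the array as a random block (duplicateCorrelation, correlation 0.553), and p-values were adjusted by Benjamini-Hochberg over the 23143 probes with at most 1 missing value. Differences between the arrays of a diet were fitted with a term per array. A simulation with known changes tested the code. The number of arrays limits the precision.

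Same-numbered mice deviated together from their group means (correlations over probes 0.306, 0.142, 0.163 and 0.200), so the fit with the mouse number as a replicate block is given where it changes a call. A number also fixes the dye, and with the dye means removed the correlations were 0.207 and 0.108.

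The local trend of a sample at a spot is the median, over kept spots in 29 rows by 9 columns, of their deviation from their mean over the samples. The local difference is the mean of this trend over the low salt samples minus its mean over the normal salt samples. The even parts of the array are those where it is at most 0.2 in size between diets. Members and gene lists were chosen with earlier results of these data known. All member probes are named. Of the listed genes, those that passed are named (up to 4 a list, by smallest p), or else the 2 with the smallest p. Gene names follow the scanner files for members, and RefSeq through the listed accessions for others (27508 probes). Promoters are those of RefSeq on GRCm38.p6. The value table of the series was not used here, because its rows matched no probe.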

Additional observations from a re-analysis of the deposited data

Results flagged for a closer look

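Of 30 groups of 4 mice tested, 1 held a mouse that stood apart from the other 3. Gsto1 read 14.37 in normal salt mouse 3, while the other normal salt mice read 14.78 to 14.83, a gap of 0.889 of the group's whole range, above the critical value of Dixon's test at 95%. Chance marks about 1 group in 20 by this criterion. Without normal salt mouse 3 the Gsto1 difference was 0.23, beside 0.40 with all 8 mice.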

How the results depend on the processing

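Over the 24 to 26 alternatives that gave a value for a member probe, the difference kept its sign in all of them for both Gsta3 probes, Gstt1, Gstk1, Gsta4, both Gstm1 probes, Gstm2 A_51_P284486, Gsto1 and Gstp1 A_51_P374464. It changed sign in some for Gsta2 (1 of 26), Gstm2 A_55_P1966438 (1 of 25) and A_55_P2134004 (5 of 25), Gstm5 (4 of 26) and Gstp1 A_55_P2031668 (7 of 24). Of these values 367 moved by less than 1 SD between replicates and 16 by more. Settings that change only the filter, the block or the averaging of arrays leave a member's difference as it was. They can alter only its SE and its test. A kept sign there was fixed in advance, and such values are among the 367.

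The 188 calls over all probes became 45 with the processed signal, 58 with the local trend subtracted, 895 with the mouse number as a replicate block, 802 with no array block, and, with 1 array left out, 347 (normal salt mice 1 and 2), 107 (low salt mice 1 and 2) and 1397 (low salt mice 3 and 4). They became 0 in limma with no normalization between arrays, each array averaged, Cy3 alone, Cy5 alone and even parts alone, where 972, 1984, 2333, 1603 and 1685 probes had an unadjusted p below 0.05. Leaving out 1 mouse gave 70 to 151.

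The 1 call among listed genes became 3 with the replicate block and with no array block (Cyp1a1, Osgin1 and Chac1), 2 with the local trend subtracted (Cyp1a1 and Osgin1), and, with 1 array left out, 2 (normal salt mice 1 and 2), 3 (normal salt mice 3 and 4) and 9 (low salt mice 3 and 4). It became 0 in limma under the same 5 settings as above, with 3, 8, 11, 7 and 10 probes at an unadjusted p below 0.05, and stayed 1 without any single mouse.

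The array contrast called 2205 probes on normal and 3183 on low salt. These became 1215 and 943 with the processed signal and 873 and 1237 with the local trend subtracted. With no normalization between arrays the low salt count was 11738. Leaving out 1 mouse gave 1108 to 1911 and 942 to 2630. Without normalization between arrays this contrast turned positive on low salt for Gstm1 A_55_P2062190 (0.24), Gstm2 A_51_P284486 (0.24) and Gstm2 A_55_P1966438 (0.36), and with the processed signal it was -0.0046 for Gstp1 A_55_P2031668. The cause was not tested. With 4 arrays and diet between them, low signal over background limits Cyp1a1 on low salt, and a missed threshold does not show that values were alike.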
